A study of Mus musculus with 3 samples.

Results

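Metalloproteases of the matrix and their inhibitors were followed as a group of 50 genes out of 15764 detected genes. The cells were described as primary mouse cavernous endothelial cells, and the marker values given below bear on that name. The group was chosen by symbol: the matrix metalloproteinases (Mmp), the ADAMTS proteases and ADAMTS-like proteins, 8 ADAM family proteins, Timp1 to Timp4 and Reck. Of 60 such genes in the RefSeq table, 57 had a named probe, and 50 of them were well above background, by the mark of the scanner software, on at least 1 array. Adamts13, Adamts18, Adamts19, Adamts20, Adamtsl2, Mmp20 and Mmp25 were not well above background on any array, and Adamtsl3, Adamtsl5 and Mmp27 have no probe named here. The members nearest to that limit were Mmp21, Adamts16 and Mmp28, which passed only on the array labelled siRNA with signals of 17.99, 19.5 and 19.8. Just outside it lay Adamts20 and Adamts18, with 14.1 and 11.1 on the same array. Of the 50 members, 46 were well above background on every array.

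The cells were grown from the penile erectile tissue of C57BL/6 mice, and all were kept in a medium with serum, antibiotics, heparin and vascular endothelial growth factor A. One array was labelled normal glucose (5 mmol), one high glucose (30 mmol) and one high glucose (30 mmol) with an siRNA (200 pmol) against Ninj1, the gene of the adhesion protein ninjurin 1. All cells were kept in their glucose condition for 48 h, and each array carried RNA pooled over 3 numbered samples, so no group has a replicate. Whether the cells of the other 2 arrays received a control siRNA is not given in the sources used here. The study asked how high glucose alters expression and how the Ninj1 siRNA alters that response.

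Matrix metalloproteinases are zinc enzymes, secreted or anchored in the membrane as inactive precursors, that cut collagens, gelatin and other matrix proteins. ADAMTS proteases are secreted enzymes that trim procollagens and cut large proteoglycans such as aggrecan and versican, whereas ADAM proteases sit in the membrane and shed the outer parts of other membrane proteins. TIMPs are secreted inhibitors of these enzymes, and Reck is a membrane-anchored inhibitor. In vessels these proteins take part in sprouting, in the turnover of basement membrane and in the release of growth factors.

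Some facts of the arrays bear on every value below. Ninj1, the gene the siRNA is directed at, did not follow the labels: its signals were 20413 (normal-glucose label), 16291 (high-glucose label) and 25539 (siRNA label), and the words in the file names exchange the 2 high-glucose arrays, so each direction belongs to the array so labelled. Signals are given as scanned. The 75th percentile of the array labelled siRNA was 1.17 times that of the array labelled high glucose, and log2 differences are taken after subtracting each array's 75th percentile. The ± beside a difference is the scanner software's own error of the spots compared, combined over both arrays. It was 0.20 for most members and reached 0.37 for a dim one. Among probes printed 10 times, the log2 signals of one probe's spots had a median SD of 0.05 from a signal of 500 up, 0.08 from 50 to 500 and 0.19 under 50. Neither measure holds any error of culture or labelling, and "higher" and "lower" describe these arrays only. Of 15 endothelial marker genes, 11 were above background on at least 1 array, while Tie1, Erg, Emcn and Sox18 were not on any. For the siRNA against the high-glucose label, 2 of these 11 were 2-fold higher (Cdh5 at 2.86-fold and Esam at 2.22-fold) and 3 lower (Vwf at 2.40-fold, Tek and Cldn5 as bounds). Over all genes, 6.64% were at least 2-fold higher and 8.36% lower. The 3 lower endothelial markers were dim on every array. In the order normal-glucose, high-glucose and siRNA label, Vwf had 63.3, 66.2 and 32.3, Tek 41.2, 38.1 and 7.63, and Cldn5 22.5, 21.3 and 11.8. Pecam1 was dim too (61.9, 76.5 and 72.4), while Kdr, the brightest of the list, had 7440, 7298 and 8278. After scaling, Kdr differed by -0.05 between the siRNA and high-glucose labels. Egfl7 (3354.5, 3194.5 and 5967) differed by 0.67, and Eng (2207, 2242 and 1499.7) by -0.81. All 11 fibroblast markers were above background on every array, and the brightest of them, Dcn, had 435886, 432729 and 380630. The markers thus do not show a purely endothelial culture, and which cells gave the protease signals was not tested. The endothelial markers' summed level, in units of each array's 75th percentile, was 7.70, 7.81 and 8.44 in the order normal-glucose, high-glucose and siRNA label, and that of the fibroblast markers was 521.9, 529.7 and 364. These sums rest on probes of different brightness and give no share of cells.

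Of 49 members with a value for the siRNA against the high-glucose label, 4 were 2-fold or more higher and 11 were 2-fold or more lower. That is 8.16% and 22.4% of the members, beside 6.64% and 8.36% of all 15366 genes with such a value. The higher members were Mmp10, Mmp1a and Mmp13, which are secreted enzymes of the stromelysin and collagenase classes, and Adam8. The lower ones were Adamts5, Adamts15, Adamts2, Adamts3, Adamtsl1, Timp3, Reck, Mmp12, Mmp16, Mmp23 and Adam23. The members' median log2 difference was -0.08, beside 0.02 for all genes, and their middle 50% ran from -0.79 to 0.21 beside -0.35 to 0.35. Among the 46 members measured on both arrays, 7 were higher and 18 lower by more than 2 scanner errors, as were 20.0% and 20.3% of 14520 genes measured on both.

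**Figure D1:**
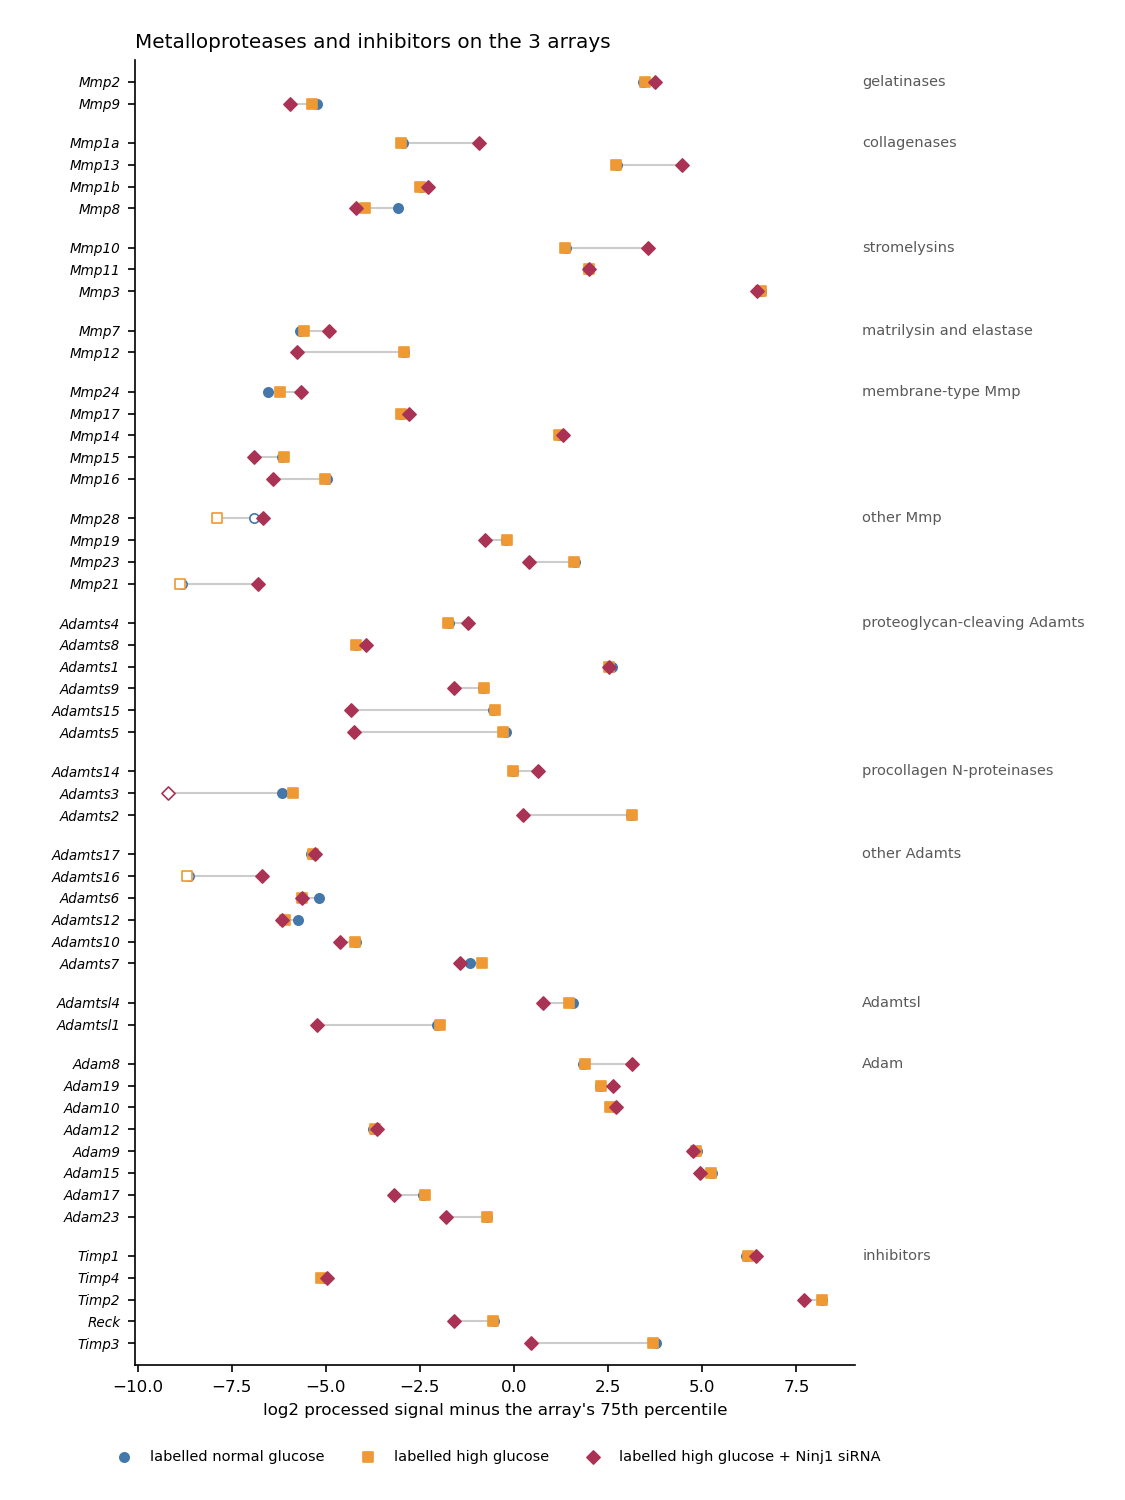
Level of each of the 50 members on the 3 arrays, as log2 processed signal minus the array's 75th percentile (x axis), with genes grouped by role (y axis), where probes differ in brightness so that positions compare arrays within a gene only. Circles stand for the normal-glucose label, squares for high glucose and diamonds for the siRNA label, open symbols are not well above background, and the symbols of the first pair of arrays lie on each other for nearly every gene, with Mmp8 the widest pair among genes measured on both.

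**Figure D2:**
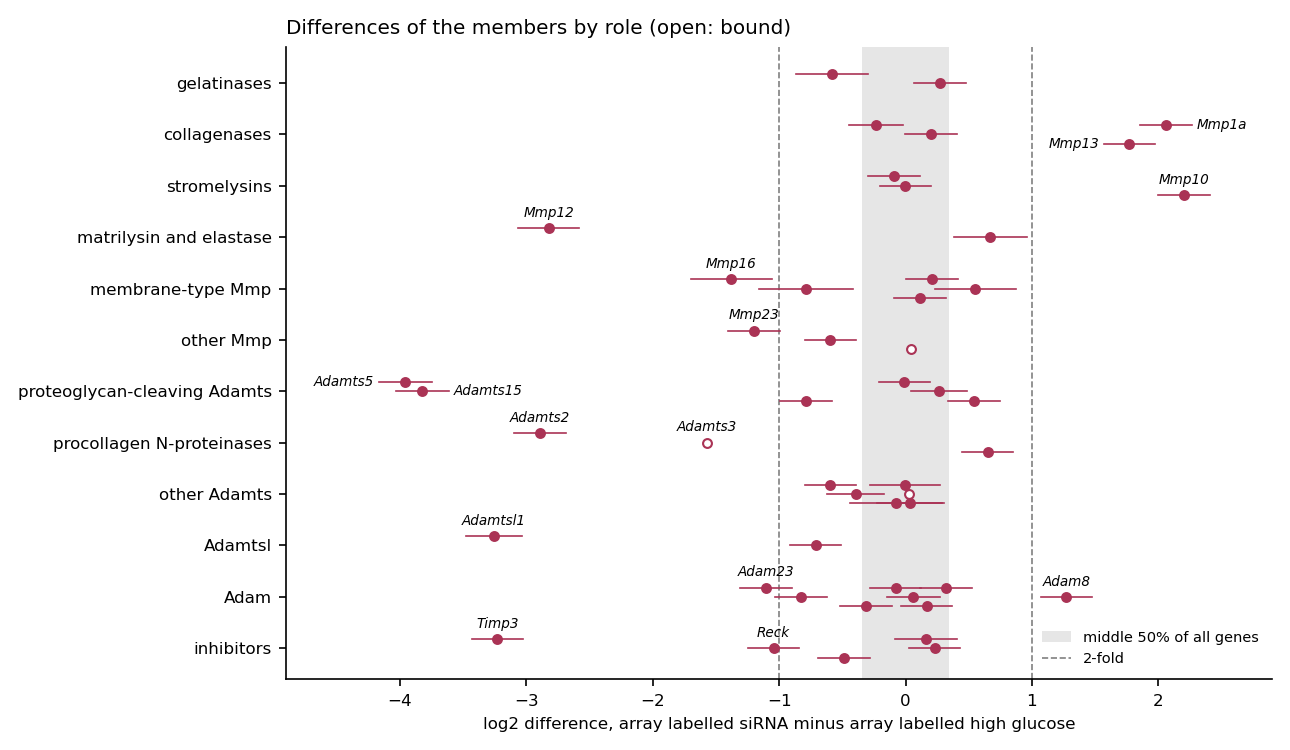
Log2 difference of 49 members for the siRNA-labelled minus the high-glucose-labelled array (x axis), by role (y axis). Points are single genes with the scanner's error as bars, open points are bounds, the grey band is the middle 50% of all genes from -0.35 to 0.35, and the dashed lines mark 2-fold; the 15 genes past 2-fold are named.

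The secreted collagenases and stromelysins mostly come from one chromosomal cluster. In the RefSeq order of protein-coding genes it runs Mmp13, Mmp12, Mmp1b, Mmp3, Mmp1a, Mmp10, Mmp8, Mmp27, Mmp20 and Mmp7, with no other protein-coding gene between them, and 8 of these 10 genes had a value. The 250 bases before the start site of the first 6 are shown because they hold the cluster's largest differences, in both directions, side by side with genes near 0. They come from RefSeq on GRCm38.p6, whereas the arrays were annotated on mm9, and capitals mark the AP-1 motif TGANTCA and the TATA box TATAAA, searched on both strands, which overlap in none of them. Mmp12 has a pair of annotated start sites, and the window with an AP-1 match is printed.
Mmp13, chr9:7272264-7272513 on the plus strand: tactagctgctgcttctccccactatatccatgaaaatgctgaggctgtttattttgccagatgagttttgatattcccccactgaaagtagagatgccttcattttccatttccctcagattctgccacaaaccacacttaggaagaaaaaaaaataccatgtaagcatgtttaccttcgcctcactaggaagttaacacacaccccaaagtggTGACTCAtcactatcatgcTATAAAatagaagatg
Mmp12, chr9:7347124-7347373 on the plus strand: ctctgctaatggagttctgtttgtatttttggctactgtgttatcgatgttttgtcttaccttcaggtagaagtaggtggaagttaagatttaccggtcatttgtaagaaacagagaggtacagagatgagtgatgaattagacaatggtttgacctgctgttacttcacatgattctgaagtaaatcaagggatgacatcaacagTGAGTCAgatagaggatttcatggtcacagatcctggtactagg
Mmp1b, chr9:7388027-7388276 on the minus strand: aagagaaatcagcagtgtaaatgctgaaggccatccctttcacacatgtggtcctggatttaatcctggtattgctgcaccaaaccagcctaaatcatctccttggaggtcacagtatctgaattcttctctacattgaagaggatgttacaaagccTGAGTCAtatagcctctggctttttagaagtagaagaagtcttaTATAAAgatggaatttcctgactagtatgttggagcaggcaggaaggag
Mmp3, chr9:7445572-7445821 on the plus strand: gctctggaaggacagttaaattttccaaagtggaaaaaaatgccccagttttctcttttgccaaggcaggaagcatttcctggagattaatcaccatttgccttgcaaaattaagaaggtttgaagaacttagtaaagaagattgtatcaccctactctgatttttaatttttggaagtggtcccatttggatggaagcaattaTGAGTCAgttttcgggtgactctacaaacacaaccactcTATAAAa
Mmp1a, chr9:7463891-7464140 on the plus strand: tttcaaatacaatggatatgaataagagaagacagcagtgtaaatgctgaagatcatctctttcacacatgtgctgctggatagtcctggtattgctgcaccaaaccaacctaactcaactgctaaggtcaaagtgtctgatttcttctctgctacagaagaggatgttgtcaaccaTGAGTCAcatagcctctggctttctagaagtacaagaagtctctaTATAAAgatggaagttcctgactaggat
Mmp10, chr9:7502092-7502341 on the plus strand: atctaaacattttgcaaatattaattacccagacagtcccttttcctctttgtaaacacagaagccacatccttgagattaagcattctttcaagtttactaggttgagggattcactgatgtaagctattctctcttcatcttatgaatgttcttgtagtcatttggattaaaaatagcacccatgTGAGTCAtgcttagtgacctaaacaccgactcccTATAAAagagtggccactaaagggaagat

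In these windows the AP-1 match began at position -35 in Mmp13, -44 in Mmp12, -93 in Mmp1b, -46 in Mmp3, -73 in Mmp1a and -63 in Mmp10, counted back from the start site, and it read TGACTCA in Mmp13 and TGAGTCA in the others. A TATAAA match followed it in all of these but Mmp12. Counting a gene if any of its windows held the motif, AP-1 matches were found for 8 of the 10 cluster genes and 7.82% of all 27025 genes. Outside the cluster, 33 genes chosen by symbol, detected on the arrays or not, had a promoter in the table. An AP-1 match was found for 1 of these 33 (Adam19). Mmp12 and Mmp7 also have a window without a match, so that 8 of 12 cluster windows held one, beside 6.75% of all 32851 windows of that length. TATAAA was found for 7 of the 10, 3 of the 33 and 14.3% of all genes. The GC box GGGCGG was found for 0 of the 10, 25 of the 33 and 35.4% of all genes. Such matches describe letters in these windows, not bound sites.

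Mmp10, encoding stromelysin-2, had signals of 4656, 4423 and 23865, given here and below in the order normal-glucose, high-glucose and siRNA label. Its signal under the siRNA label was 4.61-fold that under the high-glucose label after scaling (log2 difference 2.20 ± 0.20), and folds below refer to the same pair of arrays unless another is named. Mmp1a, an interstitial collagenase, had 229.9, 215.5 and 1052 and was 4.17-fold higher (2.06 ± 0.21). Mmp13, encoding collagenase-3, had 11878, 11200.4 and 44733 and was 3.41-fold higher (1.77 ± 0.20). In each of these 3 genes the first 2 arrays lay together and the array labelled siRNA stood alone.

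Their neighbours in the cluster stood elsewhere: Mmp1b and Mmp3 differed by no more than 1 scanner error and Mmp12 was lower. Mmp3, encoding stromelysin-1, had signals of 167857, 161935 and 177800.2, a log2 difference of -0.09 ± 0.20 that was -0.31 with quantile normalization. Mmp1b, a close paralog of Mmp1a, had 320.5, 305.6 and 411, a difference of 0.20 ± 0.20, and whether the probes of this pair share signal was not tested. Mmp12, the macrophage elastase, had 233.9, 226.9 and 37.5 and was 7.08-fold lower (-2.82 ± 0.24), with a difference of -1.76 after the normexp background correction. Of 8 macrophage markers with a value, 4 were at least 2-fold lower and 1 higher on the same array, beside 8.36% and 6.64% of all genes. Among them Adgre1, a receptor used to mark mouse macrophages, was 4.18-fold lower, Lyz2, the macrophage lysozyme, 4.13-fold lower and Cd14, an endotoxin co-receptor, 2.86-fold higher. The list's summed level was 8.22, 7.93 and 11.7. Its rise follows Cd14, the brightest gene of the list on every array (5420.5, 4989.5 and 16711), and not most of the markers. The part of macrophages in the Mmp12 value was not tested, and in pooled RNA fewer cells of a type and less RNA per cell cannot be told apart.

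The far end of the cluster was dimmer. Mmp7, the matrilysin gene, had signals of 34.7, 36.2 and 67.6, a difference of 0.67 ± 0.29 that is over 2 scanner errors but under 2-fold. Mmp8, the neutrophil collagenase, was high on 1 array: 209.9 under the normal-glucose label against 111 and 110.4 under the other labels. It differed by -0.23 ± 0.21 between the siRNA and high-glucose labels. Mmp11, a stromelysin by name that lies outside the cluster, differed by -0.0015 on its brighter probe and 0.17 on its other probe.

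**Figure D3:**
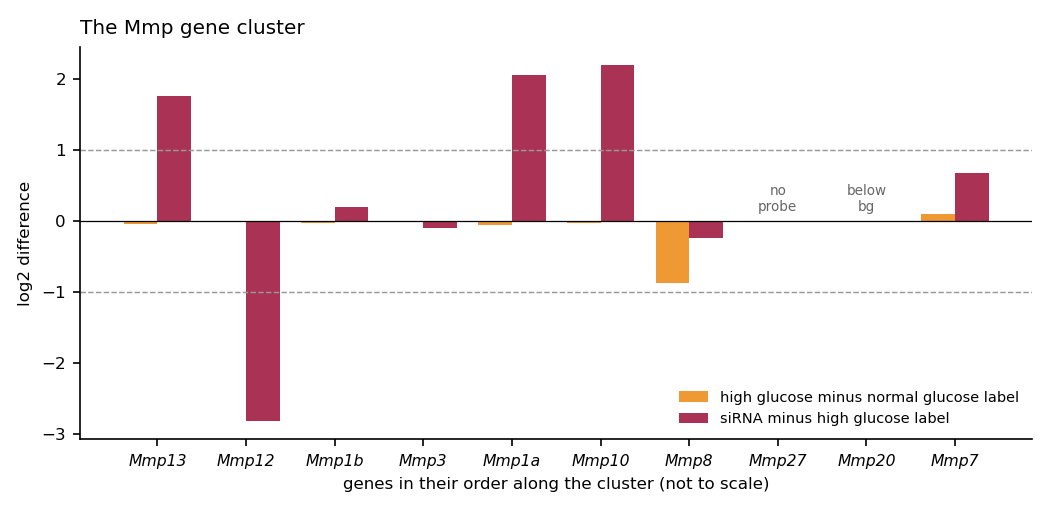
Log2 differences (y axis) of the cluster genes in their chromosomal order (x axis, not to scale), for the high-glucose against the normal-glucose label and the siRNA against the high-glucose label, 1 array each. Mmp13, Mmp1a and Mmp10 stand at 1.77, 2.06 and 2.20 beside Mmp12 at -2.82, with Mmp1b and Mmp3 near 0; dashed lines mark 2-fold, Mmp27 has no named probe and Mmp20 is below background.

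The gelatinases differed less. Mmp2, gelatinase A, had signals of 18954, 19124 and 27039 and a difference of 0.27 ± 0.20. Mmp9, gelatinase B, is the only member read by 10 spots per array, with a mean signal of 47.5 ± 4.9, 42.4 ± 5.7 and 33.3 ± 6.5 on the arrays (SD over spots, n = 10 each). As scanned, its single spots ran from 34.5 to 50.4 on the high-glucose-labelled array and from 28.0 to 49.7 on the siRNA-labelled one. These ranges overlapped, which does not bear on the means of 10 spots. The mean log2 difference after scaling was -0.58 ± 0.29, where the error is that of a single spot, not reduced for 10 spots.

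Among the membrane-type enzymes, Mmp14, the activator of pro-Mmp2, had signals of 4089, 3946 and 4999.8 and a difference of 0.11 ± 0.20. Mmp16, a membrane-type enzyme that also activates pro-Mmp2, was 2.60-fold lower (57.1, 52.9 and 23.8, difference -1.38 ± 0.32), and its log2 difference was -0.65 with the normexp background correction. The 3 other members of this class with a value lay between -0.79 for Mmp15 and 0.55 for Mmp24. The probes of Mmp24 disagreed: its other probe was at least 1.77-fold lower and too dim to count as above background on the siRNA-labelled array. Mmp23, a membrane-tethered enzyme without the usual hemopexin domain, was 2.30-fold lower with signals of 5462, 5196 and 2646. Mmp19, a widely expressed secreted enzyme, was 1.51-fold lower (1547, 1529.7 and 1186). Mmp28 was at least 1.03-fold higher, and for Mmp21 no fold could be given.

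Adamts5 and Adamts15 held the largest differences of the group, and each of the 4 ADAMTS genes past 2-fold was lower on the array labelled siRNA. Adamts5, the main aggrecanase of cartilage in mice, had signals of 1536, 1410.2 and 106 on its first probe and 1552, 1514 and 84.0 on its second. It was 15.55-fold lower on the first (-3.96 ± 0.21) and 21.1-fold lower on the second, and the first probe's difference was -3.26 with normexp. Adamts15, another protease of large proteoglycans, had 1216, 1219 and 100.7 and was 14.2-fold lower (-3.82 ± 0.21, or -3.24 with normexp). On both genes the arrays labelled normal and high glucose lay together and the array labelled siRNA lay far below.

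Their chromosomal neighbours and the other proteoglycan-cleaving members differed by less than 2-fold on their brighter probes. Adamts1, which cuts versican and aggrecan and directly neighbours Adamts5, had signals of 10824, 9981 and 11615 and a difference of -0.01 ± 0.20, whose sign turned to 0.01 when arrays were scaled to the median of probes above background. Adamts8, the neighbour of Adamts15, had 97.1, 94.7 and 133 on its brighter probe (0.26 ± 0.22), while its dimmer probe was 2.897-fold higher with signals of 33.2, 29.0 and 98.2. Adamts4, a second aggrecanase, differed by 0.54 ± 0.20 (539, 509 and 867). Adamts9, a versican-cleaving enzyme of vessels and other tissues, differed by -0.79 ± 0.20 (1007.5, 986 and 669). Of the hyalectans that these enzymes cut, Vcan (versican) was 1.73-fold higher with signals of 13535, 12858 and 26005, and Acan (aggrecan) was dim and differed by -0.14. The brain gene Bcan was above background only under the high-glucose label. That makes it the 1 lower gene, as a bound, of 3 compared in that list, beside 8.36% of all genes.

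Of the procollagen N-proteinases, which remove the amino-terminal propeptide of fibrillar collagens, Adamts2 was 7.43-fold lower on its brighter probe (15393, 15123 and 2383, difference -2.89 ± 0.20) and 4.74-fold lower on its dimmer probe. Adamts3 was at least 2.97-fold lower: its signals were 24.9, 29.7 and 3.44, the last not well above background, and the difference was -0.60 with normexp. Adamts14 went the other way at 1.57-fold higher (1743, 1709 and 3139.5), with 1.13-fold on its dim second probe. Of the other ADAMTS genes, the 5 measured on both arrays lay between -0.59 for Adamts7, an enzyme that cuts cartilage oligomeric matrix protein, and 0.04 for Adamts17. Adamts16, seen only under the siRNA label (4.49, 4.23 and 19.5), has a lower bound alone, at least 1.02-fold higher. Adamtsl1, a matrix protein without protease activity, was 9.56-fold lower (433.8, 438.8 and 53.7, difference -3.26 ± 0.22, or -2.28 with normexp), and Adamtsl4, which binds fibrillin microfibrils, was 1.64-fold lower (5292, 4775 and 3414).

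Of 11 fibroblast markers, 6 were at least 2-fold lower on the same array and 0 higher, beside 8.36% and 6.64% of all genes. Their median was -1.39. The 3 lowest were Dpt, the matrix protein dermatopontin, at 8.46-fold lower, the proteoglycan Lum at 6.79-fold and the matrix protein Fbln1 at 4.57-fold, while Pi16 and the surface protein Thy1 stood at 0.29 and 0.10. Smooth muscle and pericyte markers had 4 of 8 at least 2-fold lower and 1 higher, and their summed level was 55.2, 56.1 and 29.2. Their part in the lower ADAMTS, Timp3 and Reck values was not tested.

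The inhibitors split. Timp3, which stays bound to the matrix and also inhibits Adam17 and the aggrecanases, had signals of 24288, 22214 and 2773 and was 9.37-fold lower (-3.23 ± 0.20). Reck had 1234, 1182 and 670.5 on its brighter probe and was 2.06-fold lower (-1.04 ± 0.20), with 1.57-fold on its second probe and a log2 difference of -0.85 for the mean of both. Timp2, which inhibits Mmp2 and also helps Mmp14 to activate it, had 518004, 503201 and 419909.7 and a difference of -0.49 ± 0.20, with -0.34 on its second probe. The Timp2 difference was -0.75 with cyclic loess and -0.38 with quantile normalization. Timp1, a secreted inhibitor of most Mmp enzymes, had 127764, 127415 and 174846 and a difference of 0.23 ± 0.20, which became -0.01 with quantile normalization. Timp4 was dim with 53.5, 49.2 and 64.5 and a difference of 0.16 ± 0.25. Only Timp3 and Reck among these 5 passed 2-fold, both lower.

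Of the ADAM genes, Adam8, a protease first known from leukocytes, was 2.42-fold higher (6369.8, 6323 and 17874, difference 1.27 ± 0.20). Adam23, a neural relative without protease activity, was 2.15-fold lower on its brighter probe (1086, 1051 and 573, difference -1.10 ± 0.20) and 3.26-fold lower on its dimmer probe. Adam17, the enzyme that sheds tumour necrosis factor and ligands of the epidermal growth factor receptor, was 1.77-fold lower on one probe (335.5, 335.6 and 221) and 1.71-fold on the other. Adam10, the main protease that activates Notch receptors, had 11429.9, 10081 and 13248 and a difference of 0.17 ± 0.20. Adam9, Adam12, Adam15 and Adam19 lay between -0.31 and 0.32.

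Members with more than 1 probe above background numbered 10, and the probes had the same sign in 8 of them. The exceptions were Mmp24, both of whose probes were dim, and Mmp11, whose values lay near 0. Of the 15 members past 2-fold, 4 had a second probe above background, and it was past 2-fold for Adam23, Adamts2 and Adamts5 but not for Reck. The other 11 rest on 1 probe with 1 spot per array. Among these, Mmp12 and Adamtsl1 have a further probe that was not well above background anywhere, with signals of 11.4, 14.5 and 3.46 for Mmp12 and 8.96, 12.5 and 7.90 for Adamtsl1.

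**Figure D4:**
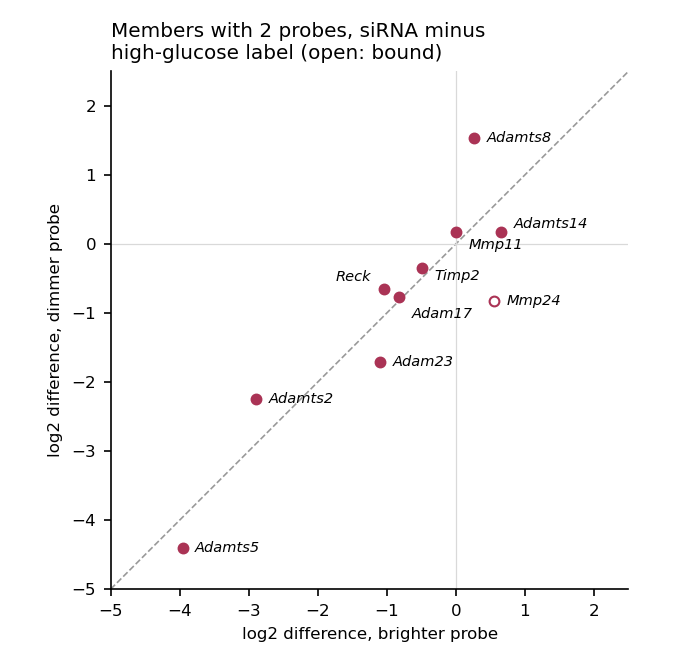
Log2 difference for the siRNA minus the high-glucose label on the brighter probe (x axis) and the dimmer probe (y axis) of the 10 members with 2 probes above background. Filled points are measured on both arrays, the open point (Mmp24) is a bound on its dimmer probe, the dashed line marks equal values, and Adamts5, Adamts2, Adam23, Reck, Adam17 and Timp2 are negative on both probes.

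Genes that act with these proteases included both directions. Of 10 genes of plasminogen activation with a value, the system whose product plasmin activates several Mmp precursors, 4 were at least 2-fold higher on the array labelled siRNA and 1 lower, with a median of 0.26 beside 0.02 for all genes. Over all genes, 6.64% were at least 2-fold higher and 8.36% lower. Plau, the urokinase gene, had signals of 437, 431 and 2711 and was 5.38-fold higher. Plaur, its receptor, was 3.50-fold higher (5203, 4939 and 20260.4), and Serpinb2, an inhibitor of urokinase, 3.30-fold (5086, 5911 and 22811). Plat, the tissue plasminogen activator, went the other way at 4.10-fold lower (2798, 2564 and 731). The fourth higher gene, Serpinf2, the gene of the plasmin inhibitor antiplasmin, was dim (51.8, 27.7 and 78.0). It was 1.33-fold higher when compared with the normal-glucose label.

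Of 12 convertases and partner proteins that activate or carry Mmp and ADAM enzymes, 0 passed 2-fold, with a median of -0.18. The largest value was that of Pcsk5, a furin-like convertase, at -0.997 ± 0.20, followed by Tspan5, a tetraspanin partner of Adam10, at -0.87. Of 5 tolloid, meprin and helper genes with a value, 2 were at least 2-fold higher, beside 6.64% of all genes. They were the dim Mep1a (51.5, 26.4 and 107.6) and Pcolce2, an enhancer of procollagen processing (529, 513 and 1272). Against the normal-glucose label Mep1a was 1.84-fold higher, under 2-fold. Of 4 other inhibitors or clearance genes with a value, 0 passed 2-fold, and A2m, the alpha-2-macroglobulin gene, was below background throughout.

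Under the high-glucose label the members lay close to their levels under the normal-glucose label. Of 47 with a value on both sides, 0 were 2-fold higher and 0 were 2-fold lower, beside 0.815% and 0.703% of 15083 genes. With 1 array each no test was run, so there is no count at an unadjusted p. In all, 41 members were within 1.2-fold, as were 91.5% of all genes, and the members' median was -0.01. Mmp8 alone among the members passed 1.5-fold. Its level was 1.84-fold lower there than under the normal-glucose label (-0.88 ± 0.21) on 1 probe with 1 spot per array. The inhibitors lay between -0.09 for Timp3 and 0.04 for Timp1, and Mmp10, the neighbour of Mmp8 with a value, stood at -0.03.

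For the siRNA against the normal-glucose label, 4 of 49 members were 2-fold or more higher and 12 lower, beside 6.48% and 8.08% of 15288 genes. This comparison shares an array with each of the others and is not independent of them. Mmp10, Mmp1a and Mmp13 stood at 2.17, 2.01 and 1.73, Adamts5 and Adamts15 at -4.04 and -3.78, and Timp3 at -3.32. Mmp8 was the added lower gene, at 2.16-fold lower, and with normexp its difference was -0.82, under 2-fold. Adamts2 stood at -2.88, Adamtsl1 at -3.20, Mmp12 at -2.83 and Adam8 at 1.30.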

How the data were processed

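Total RNA pooled over 3 numbered samples per group was labelled with Cy3 and hybridised to 3 single-colour Agilent arrays, per the labels' protocols. The deposited intensity of each spot is the processed signal of Agilent Feature Extraction 11.0.1.1, per the file headers, a linear value after background subtraction. The value table deposited by the authors holds the same intensity (column medians 118.1, 117.7 and 128.6, linear and not centred): 99.7% or more of its probes lay within 0.01 log2 of the scanner value of the same array. How it combined repeated spots is unknown. No depth applies to arrays, and the number of arrays, 1 per group, limits the precision.

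Outlier spots were left out, log2 signals were averaged over a probe's spots, and each array's 75th percentile over 39429 probes was subtracted. The arrays had 67.0%, 67.6% and 70.6% of probes well above background, and no spot was saturated. Probes were named through accessions matched to the RefSeq table of GRCm38.p6 (26055 probes, 66.1%, for 19751 genes). Of a gene's probes seen above background somewhere, the brightest stood for it. A probe too dim on 1 side of a comparison gives a bound, written "at least": the dim side is set to the array's lowest value well above background, or to the probe's own value if that is higher. A gene is called at 2-fold. No p-value is given, since 1 array per group leaves no test.

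The members and lists were chosen with earlier results of these data known. Values are given for each member past 2-fold, for a fixed set of central members, and for the extremes of each role. The main scaling, difference and call steps were tested on simulated data in Python 3.11.15. Changes were set only in probes well above background and not dim, so calls on dim members were not covered. The alternatives run with limma 3.58.1 in R 4.3.3 were not simulated. Alternatives covered scaling, background correction, filters, probes, thresholds and array assignment.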

Additional observations from a re-analysis of the deposited data

How the results depend on the processing

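No paired analysis was possible because each group has 1 array, and no replicate could be left out. Under cyclic loess, quantile normalization, scaling by the common probes' median, the value table, normexp and a mean over probes, 4 members were at least 2-fold higher and 9 to 12 at least 2-fold lower for the siRNA label in both comparisons. Of the 15 members past 2-fold against the high-glucose label, all 15 kept their sign under the scalings, normexp and the mean over probes, and 12 stayed past 2-fold, the exceptions being Adamts3, Mmp16 and Reck. Against the normal-glucose label, 12 of 16 stayed past it, with Mmp8 a further exception. Without a filter on dim probes, 8 were higher for the siRNA against the high-glucose label, and 1 was higher and 1 lower for the high-glucose against the normal-glucose label. At 1.5-fold there were 17 lower members for the siRNA against the high-glucose label, 1 lower for the high-glucose against the normal-glucose label and 7 higher for the siRNA against the normal-glucose label. At 3-fold, 6 were lower for the siRNA label in each comparison. With the 2 high-glucose arrays exchanged, as the file names have them, the counts became 11 higher and 4 lower for the siRNA against the high-glucose label, 4 and 12 for the high-glucose against the normal-glucose label, and 0 and 0 for the siRNA against the normal-glucose label. Over all genes, normexp gave 622 higher and 776 lower against 1020 and 1284 for the siRNA against the high-glucose label, 40 and 34 against 123 and 106 for the high-glucose against the normal-glucose label, and 603 and 766 against 990 and 1236 for the siRNA against the normal-glucose label. Keeping only probes seen above background on all 3 arrays, the high-glucose against normal-glucose counts were 35 and 26, and with no filter 433 and 329. For the 3 comparisons in the order of the report, 2238, 229 and 2148 genes were higher and 2461, 189 and 2405 lower at 1.5-fold, and 411, 83 and 393 were higher and 524, 74 and 508 lower at 3-fold. Leaving dim probes in moved the share of higher among the member calls from 26.7% to 42.1%. Taking the dimmer probe, chosen after seeing the data, gave 5 higher and 10 lower against the high-glucose label. Normexp was run on median spot signals, and naming genes by the scanner files was not run. Signals under 50 on at least 1 array limit Adamts3, Adamts6, Adamts12, Adamts17, Mmp7, Mmp9, Mmp12, Mmp15, Mmp16, Mmp24, Timp4 and the members seen on 1 array.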
